A study of Homo sapiens with 54 samples.

Results

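The arrays described here measured how NCI-H460 cells pretreated with nicotine responded to ionizing radiation 24 h later. NCI-H460 is an established line grown from a human large cell lung carcinoma. The comparison uses 6 of the 54 arrays of the series, taken by their titles: 3 of cells given nicotine and then radiation and 3 of cells given nicotine alone, both harvested at 24 h. Cells had been held in serum-free medium before treatment. Both groups received 5 uM nicotine, and 2 h later the irradiated group received a single dose of 6 Gy from a cesium-137 source. Time is counted from the radiation. The other arrays used here come from the same experiment: untreated cells and cells given 6 Gy without pretreatment at 24 h, cells given cigarette smoke extract (matched to 5 uM nicotine) with or without 6 Gy at 24 h, and the nicotine groups with or without 6 Gy at 2 h. The remaining groups of the series, among them all that received 1 uM cisplatin, entered only the estimate of the spread between arrays. Every group has 3 arrays, each from its own well, labelled as biological replicates. All wells came from 1 line treated in parallel, so the tests measure the spread between wells of 1 experiment.

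Radiation breaks DNA. The ATM and ATR kinases that sense the breaks stabilise the transcription factor p53, which switches on genes for cell cycle arrest, repair and death, among them its own inhibitor MDM2. One of its targets, the CDK inhibitor p21 (CDKN1A), keeps RB-family proteins active. Complexes that hold these proteins and E2F factors, the DREAM complex among them, repress the genes of DNA replication and mitosis. Nicotine binds nicotinic acetylcholine receptors, which lung cancer cells can carry, and has been studied as an agent that may change how tumour cells survive treatment.

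Levels are on a log2 scale, so a change of 1 is a doubling. For each gene, levels given first are from wells without radiation and levels given second from separate irradiated wells harvested at the same time. A gene was called when its Benjamini-Hochberg adjusted p from limma was under 0.05 over 18417 genes, with the spread estimated over all 18 groups of 3 arrays. Of these genes, 2810 were called in irradiated nicotine-pretreated cells (15.3%), 1583 higher (8.6%) and 1227 lower (6.66%). The median change over all genes was 0.02. Most changes were small: 511 called genes passed 1.5-fold, 210 higher and 301 lower, and past 2-fold there were 36 higher and 53 lower. Of the 10 largest rises with arrays that did not overlap, those of TP53INP1, GADD45A and SESN1 were in listed p53 targets and the rest, led by ACTA2 and SULF2, were outside those lists. The deepest falls were in replication-dependent histone genes, followed by genes of DNA replication and cell division.

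**Figure D1:**
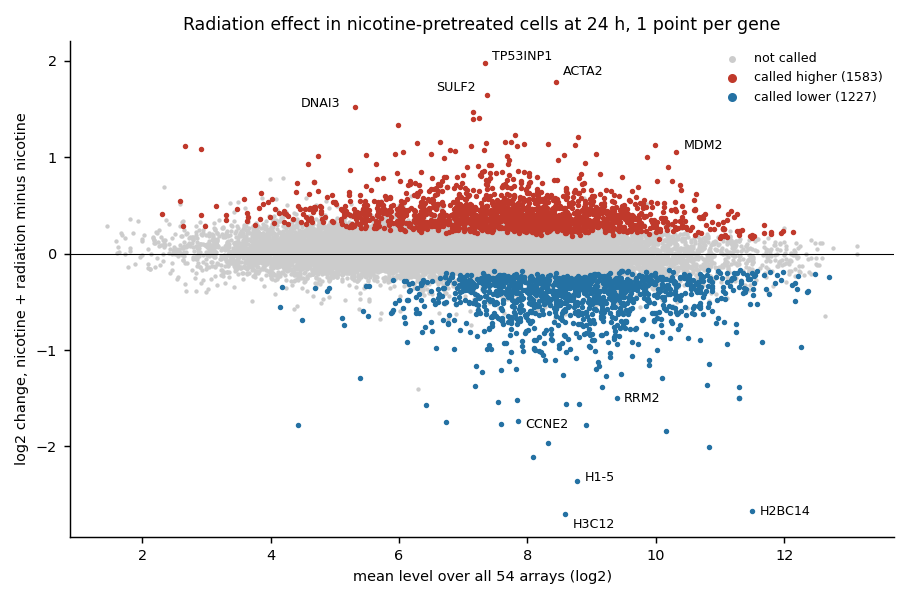
Each point is 1 of 18417 genes, with its mean level over all 54 arrays (log2) on the x axis and its log2 change (nicotine plus radiation minus nicotine, 24 h) on the y axis. Red points were called higher (1583) and blue points called lower (1227); TP53INP1, ACTA2 and SULF2 top the plot, and the histone genes H3C12 and H2BC14 lie at its lower edge.

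The split between rises and falls depended on single control arrays. Without nicotine replicate 2 there were 939 higher and 1353 lower calls, and without nicotine replicate 3 there were 2377 higher and 1201 lower. These 2 arrays correlated at r = 0.979 over 33297 rows of the value table, the lowest of any replicate pair of the series (up to 0.996). The mean level of 459 genes of olfactory receptor, taste receptor, vomeronasal receptor and keratin-associated protein families, used as a measure of background, was 4.83, 5.08 and 4.83 on the nicotine arrays and 4.97 ± 0.03 (SD, n = 3) after radiation, a difference of 0.06 (exact permutation p = 0.5, two-sided, smallest possible 0.1) that was 0.141 without nicotine replicate 2. Of the markers of the line, KRT8 (12.02), KRT18 (11.26) and KRT19 (11.67) were high in nicotine-treated cells, while EPCAM was at 5.30. Without detection calls no marker can be called absent. Summed as a mean level, 5 epithelial markers stood at 9.45 to 9.46 without and 9.43 to 9.48 with radiation. In the same order, 6 leukocyte markers stood at 5.61 to 5.85 and 5.60 to 5.80. The 7 fibroblast markers stood at 6.01 to 6.03 and 6.09 to 6.14, and 5 endothelial markers at 5.17 to 5.55 and 5.25 to 5.29. Levels within a set ranged widely, from PTPRC at 3.59 to CD68 at 9.24 among leukocyte markers and from DCN at 3.11 to COL1A1 at 7.55 among fibroblast markers. KRT18 was called lower by a change of -0.21 and PDGFRB higher by 0.32, and no leukocyte or endothelial marker was called. The part of these values in the results was not tested. In a bulk sample, fewer cells of a kind and less RNA per cell cannot be told apart.

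TP53INP1, a p53 target that promotes arrest and death, had the largest rise of the named genes. Its level was 6.78, 6.46 and 6.97 on the 3 nicotine arrays and 8.84, 8.68 and 8.61 after radiation, a change of 1.97 ± 0.14 (SE, n = 3 per group, limma adjusted p = 5.0e-15). All irradiated arrays lay far above all controls. Such separation was a condition for entering the 10 largest rises and falls, so it adds no support for those genes. The 2 groups did not overlap in 3383 of all genes (18.4%). CDKN1A went from 8.37, 8.32 and 8.30 to 9.66, 8.99 and 9.15, a change of 0.94 ± 0.16 (limma adjusted p = 1.4e-05). MDM2, the ubiquitin ligase that returns p53 to low levels, went from 10.11, 9.89 and 9.70 to 11.15, 10.83 and 10.87, a change of 1.05 ± 0.11 (limma adjusted p = 2.8e-10). In both genes the groups did not overlap, and irradiated replicate 1 was the highest array.

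Of 16 measured genes on the list of p53 targets for arrest and feedback, 14 rose and 1 fell, with a median change of 0.73. The shares to set beside this and each later list are 8.6% called higher and 6.66% called lower over all genes. GADD45A, which binds CDK1 and PCNA, rose by 1.41 ± 0.11. PHLDA3, an inhibitor of AKT, rose by 0.84, ZMAT3, an RNA-binding p53 target, by 0.85, and PPM1D, the phosphatase that switches damage signalling off, by 0.65. GDF15, a secreted stress cytokine, had a change of 1.00 ± 0.27 that rested on single arrays: without nicotine replicate 3 it was 0.62 (limma adjusted p = 0.121) and without irradiated replicate 1 it was 0.64 (limma adjusted p = 0.127). SFN (14-3-3 sigma), a target that holds CDK1 in the cytoplasm, fell by 0.31 against the rest of the list. That call was lost in 3 of 14 alternative fits (limma adjusted p up to 0.324), among them the fit without irradiated replicate 1. E2F7, a repressor of the E2F family, stood at -0.04 and was not called.

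Among 17 measured p53 targets of metabolism, repair and antioxidant defence 12 rose and none fell (median 0.49). SESN1, a stress-inducible inhibitor of mTORC1, had levels of 6.63, 6.05 and 6.92 without and 7.92, 7.83 and 8.03 with radiation, a change of 1.40 ± 0.13. The control arrays were the more scattered, and the groups did not overlap. The paralog SESN2 rose by 0.93, TIGAR, which lowers glycolytic flux, by 1.07, and the lesion-recognition factors of nucleotide excision repair DDB2 and XPC by 1.03 and 0.86.

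The apoptosis list moved less: 7 of 18 measured members rose, none fell, and the median was 0.11. FAS, the death receptor, went from 7.57, 7.42 and 7.39 to 8.71, 8.62 and 8.48, a change of 1.14 ± 0.11, with every irradiated array above every control. TP53I3, a quinone reductase, rose by 0.84, TNFRSF10D, a decoy receptor for TRAIL, by 0.52, AEN, a nuclease, by 0.49, and BAX, the pore-forming death effector, by 0.48. TNFRSF10B, a TRAIL death receptor, had a change of 0.48. It lost its call in 2 of 14 alternative fits, among them the fit without irradiated replicate 1. The BH3-only gene BBC3 (PUMA) had a change of 0.06 ± 0.13 and overlapping arrays (7.43, 7.65 and 7.13 against 7.46, 7.50 and 7.43). PMAIP1 (NOXA), another BH3-only gene, had a change of 0.03.

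Several of the largest rises lay outside the p53 lists, which do not hold every p53 target. ACTA2, smooth muscle actin, went from 8.08, 7.79 and 8.30 to 9.74, 9.86 and 9.89, a change of 1.77 ± 0.09 (limma adjusted p = 2.5e-19). SULF2, an extracellular enzyme that trims sulfate from heparan sulfate, went from 6.99, 6.81 and 7.18 to 8.66, 8.56 and 8.70, a change of 1.65 ± 0.07 (limma adjusted p = 5.9e-22). Both had tight irradiated arrays well clear of the controls. SPATA18, which acts in mitochondrial quality control, rose by 1.47 ± 0.10, DNAI3, an axonemal dynein intermediate chain, by 1.52 ± 0.11, DSC3, a desmosomal cadherin, by 1.33 ± 0.13, and DGKA, a diacylglycerol kinase, by 1.23 ± 0.10. ACTA2 and SULF2 were not joined by most of their list: of 29 contractile, CCN and matrix genes 6 rose and 1 fell, with a median of 0.05. The share called either way over all genes was 15.3%. Of the other rises, ANKRD1 stood at 0.71 and TGFB2 at 0.38.

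**Figure D2:**
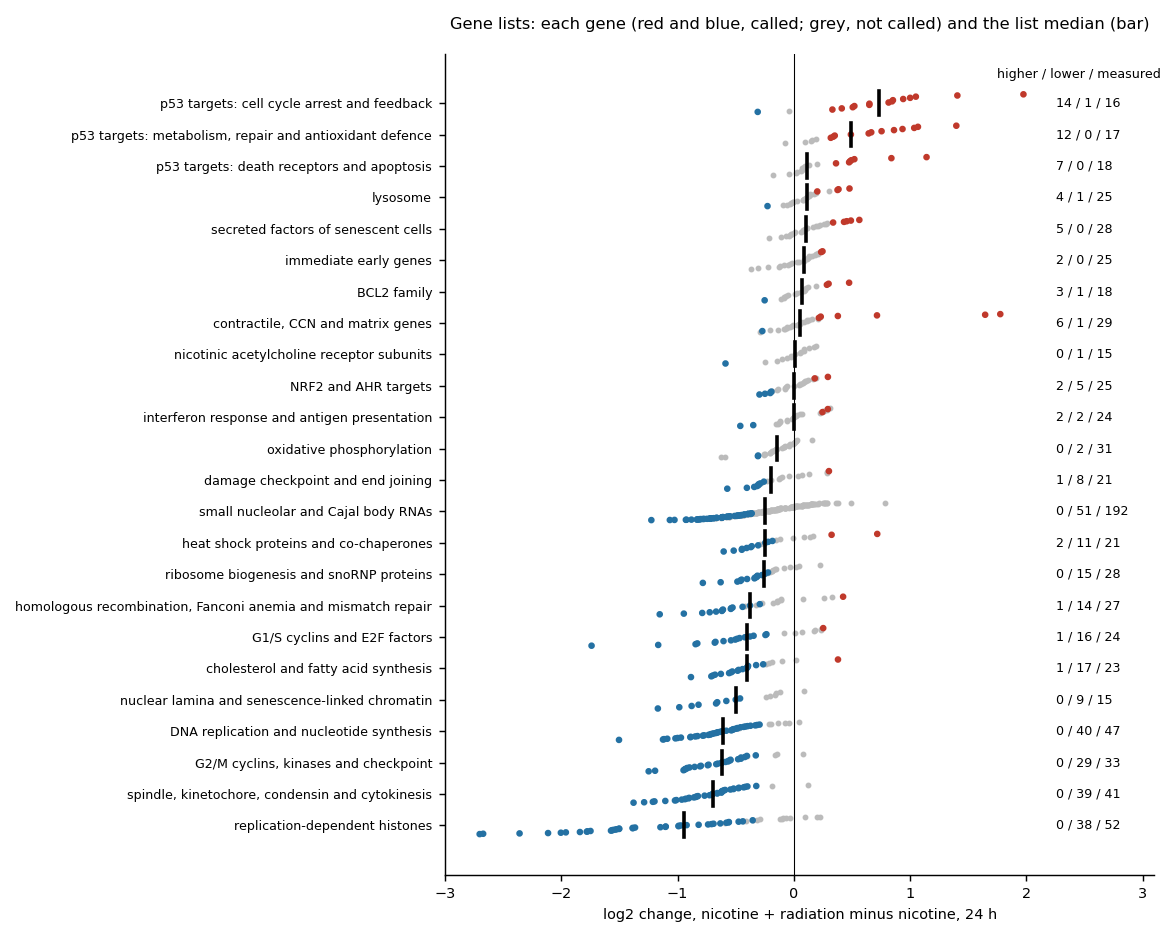
Each row is a gene list and each point a measured member, placed by its log2 change (nicotine plus radiation minus nicotine, 24 h); red and blue points were called, grey points were not, the vertical bar is the list median, and the figures at the right count members higher, lower and measured. The p53 arrest list stands at the top (14 / 1 / 16) and the replication-dependent histones at the bottom (0 / 38 / 52).

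The replication-dependent histones package newly made DNA and are transcribed in S phase. Of 52 measured, 38 fell and none rose, with a median of -0.95. H3C12 went from 9.52, 9.24 and 8.82 to 6.55, 6.35 and 6.58, a change of -2.70 ± 0.13 (limma adjusted p = 7.6e-21). H2BC14 went from 12.08, 11.95 and 12.13 to 9.11, 9.65 and 9.39, a change of -2.67 ± 0.10 (limma adjusted p = 8.7e-26). In both, every irradiated array lay over 2 log2 units below every control. The linker histones H1-5 and H1-3 fell by 2.36 and 2.11, and H2BC9, H4C4, H2BC7 and H3C7 by 2.00, 1.96, 1.84 and 1.78. Histone genes are near-copies of each other, and their probes may not separate them: H4C14 and H4C15 carry identical values in the table, so members are not independent.

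Of 47 measured genes of DNA replication and nucleotide synthesis, 40 fell and none rose (median -0.61). RRM2, the small subunit of ribonucleotide reductase, went from 9.45, 9.45 and 9.76 to 8.04, 8.17 and 7.94, a change of -1.50 ± 0.11 (limma adjusted p = 4.1e-15). The helicase subunits MCM4 and MCM6 fell by 1.13 and 1.09, CDC45 by 1.02 and the checkpoint adaptor CLSPN by 1.12. CDT1, the licensing factor, had a change of -0.13 and was not called. On the G1/S list 16 of 24 fell and 1, CDK6, had a called rise of 0.25. That call was lost in 5 of 14 alternative fits, among them those without nicotine replicate 2 or irradiated replicate 1 or 3. CCNE2 (cyclin E2) went from 8.05, 7.67 and 7.85 to 6.53, 6.00 and 5.83, a change of -1.74 ± 0.19, with no overlap. The atypical E2F factor E2F8 fell by 1.17, UHRF1, which guides maintenance DNA methylation, by 0.83, and E2F1 by 0.49 ± 0.09. A fit of the 6 arrays alone called 8 of the G1/S list lower.

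Genes of mitosis also fell, with smaller median changes than the histones. On the G2/M list 29 of 33 fell and none rose (median -0.62), and on the spindle, kinetochore and cytokinesis list 39 of 41 fell and none rose (median -0.70). CCNA2 (cyclin A2) went from 9.53, 9.51 and 9.75 to 8.27, 8.49 and 8.28, a change of -1.25 ± 0.08 (limma adjusted p = 6.7e-16). AURKB, the kinase of the chromosomal passenger complex, went from 9.29, 9.21 and 9.22 to 7.94, 8.05 and 8.15, a change of -1.19 ± 0.08 (limma adjusted p = 6.7e-16). The groups were well apart in both. PLK1, a kinase of mitotic entry, fell less, by 0.56 ± 0.07, CCNB1 (cyclin B1) by 0.62 and CDK1 by 0.85 ± 0.18. CENPE, a kinetochore motor, fell by 1.20, SPC25, a kinetochore subunit, by 1.38, HJURP, the chaperone that loads centromeric histone, by 1.29, and the proliferation marker MKI67 by 1.11. WEE1, the kinase that inhibits CDK1, stood at -0.40 (limma adjusted p = 0.0910), NEK2 at -0.16, HMMR at -0.19 and KIF18A at 0.12, and none of these was called.

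The RefSeq promoters of these genes (GRCh38.p14, 250 bases before to 50 after the start) were searched for letters known from repressed cell cycle genes: TTTGAA (the core of the CHR, cell cycle genes homology region), CCAAT, and an E2F site in 4 forms, on both strands. The E2F forms have GG in the middle (TTTGGCG), or CC there (TTTCCCG), or CG there (TTTCGCG), or GC there (TTTGCCG). No motif contains another. Falling members without a promoter entry were left out. Entries were found for 22 of 29 on the G2/M list, 36 of 39 on the spindle list and 35 of 40 on the replication list. They were found for 13 of 16 on the G1/S list and 33 of 38 histones. CHR letters were in 15 of 22 falling G2/M promoters (68.2%) and 28 of 36 falling spindle promoters (77.8%), but in 1 of 35 replication promoters (2.86%) and none of 13 G1/S promoters; 11.9% of 14239 promoters of measured genes hold them. E2F letters ran the other way, in 13.6% and 13.9% of the first 2 lists, 51.4% of replication and 53.8% of G1/S promoters, beside 11.1% of all. CCAAT was in 81.8% of falling histone promoters (27 of 33), 77.3% of G2/M and 72.2% of spindle promoters, 60.0% of replication and 30.8% of G1/S promoters, beside 36.3% of all. Of the falling histone promoters 33.3% held CHR letters and 27.3% E2F letters. CHR and CCAAT occurred together in 54.5% of the falling G2/M promoters and 58.3% of the falling spindle promoters, beside 4.86% of all. Of all called falling genes 16.9% had CHR letters and of all called rising genes 10.3%. A match is a run of letters and was not tested as a bound site. The 3 promoters below run from 250 bases before to 30 after the start. They belong to the G2/M genes with the largest called falls among those with a promoter entry that holds both motifs. They show how these motifs sit, and capitals mark CHR and CCAAT letters on either strand.
MAD2L1 (chr4:120066819-120067098, minus strand): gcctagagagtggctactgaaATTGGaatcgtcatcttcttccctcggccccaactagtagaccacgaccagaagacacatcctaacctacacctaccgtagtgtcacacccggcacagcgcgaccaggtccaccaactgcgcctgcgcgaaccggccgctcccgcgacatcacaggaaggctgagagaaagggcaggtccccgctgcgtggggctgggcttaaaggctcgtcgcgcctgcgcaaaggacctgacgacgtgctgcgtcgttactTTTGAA
CKS2 (chr9:89310945-89311224, plus strand): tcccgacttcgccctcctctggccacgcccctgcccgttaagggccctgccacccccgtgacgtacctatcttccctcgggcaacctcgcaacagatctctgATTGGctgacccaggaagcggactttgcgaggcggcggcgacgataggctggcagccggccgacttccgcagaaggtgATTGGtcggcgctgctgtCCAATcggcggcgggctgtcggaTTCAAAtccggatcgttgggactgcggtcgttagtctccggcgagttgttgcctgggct
CCNF (chr16:2429197-2429476, plus strand): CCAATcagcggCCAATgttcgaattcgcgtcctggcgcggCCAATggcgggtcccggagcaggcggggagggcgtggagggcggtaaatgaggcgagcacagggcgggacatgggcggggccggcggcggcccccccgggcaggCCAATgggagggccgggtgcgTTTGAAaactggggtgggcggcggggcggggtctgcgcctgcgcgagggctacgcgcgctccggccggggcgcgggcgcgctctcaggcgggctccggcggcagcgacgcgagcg

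MAD2L1, the spindle checkpoint protein, has its CHR letters 25 to 30 bases into the gene and its CCAAT letters, on the other strand, at -229 to -225. Its levels were 8.77, 8.61 and 8.31 without and 8.19, 7.41 and 7.25 with radiation, a change of -0.95 ± 0.23 (limma adjusted p = 0.00296). CKS2, a CDK-binding subunit, has CHR letters at -29 to -24 and 3 CCAAT boxes. Its levels were 11.82, 11.55 and 10.92 without and 10.72, 10.28 and 10.48 with radiation, a change of -0.94 ± 0.29 (limma adjusted p = 0.0190). The groups did not overlap in either gene, but the CKS2 call was lost when nicotine replicate 1 or 2 or irradiated replicate 2 or 3 was left out (limma adjusted p 0.0501 to 0.145). CCNF, cyclin F, has CHR letters at -85 to -80 and 4 CCAAT boxes, and fell by 0.92 at 24 h.

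Repair genes fell in part. Of 27 measured genes of homologous recombination, the Fanconi anemia pathway and mismatch repair, 14 fell and 1 rose (median -0.38). UBE2T, the ubiquitin-conjugating enzyme of the Fanconi pathway, fell 2.22-fold, RAD51AP1 on the log2 scale by 0.95, RAD54L by 0.79, XRCC2 by 0.72 and BLM helicase by 0.61. FANCF had a called rise of 0.42. That call was lost in 4 of 14 alternative fits, among them those without nicotine replicate 1 or 2 or irradiated replicate 2. Of 21 genes of the damage checkpoint and end joining, 8 fell and 1 rose (median -0.20). The end-joining subunits PRKDC and XRCC5 fell by 0.40 and 0.34, and H2AX by 0.57 (a call lost without irradiated replicate 1). Without irradiated replicate 2 the list had 4 falls, without nicotine replicate 3 it had 5, and in the 6-array fit none.

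Of 15 measured lamina and senescence-linked chromatin genes, 9 fell and none rose (median -0.50). LMNB1 (lamin B1), whose loss accompanies senescence, went from 8.25, 8.14 and 8.39 to 7.37, 7.18 and 7.28, a change of -0.98 ± 0.08 (limma adjusted p = 1.3e-13). Every irradiated array was below every control. The histone chaperone ASF1B fell by 1.17 and the lamina-associated protein TMPO by 0.88. Of 28 secreted factors of senescent cells 5 rose and none fell (median 0.10): PLAU (urokinase, 0.56 ± 0.09), IGFBP7 (0.49 ± 0.08), IL1A (0.45), TIMP2 (0.43) and TNFRSF11B (0.34). Over all genes 15.3% were called either way and 8.6% called higher. Leaving out nicotine replicate 1 left 2 rises, and leaving out nicotine replicate 2 or irradiated replicate 1 or 2 left 3.

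Genes of cholesterol and fatty acid synthesis fell, 17 of 23 measured (median -0.41) against 1 rise. EBP, a sterol isomerase, went from 9.57, 9.67 and 9.39 to 8.77, 8.55 and 8.67, a change of -0.88 ± 0.13, with no overlap. DHCR7, the last enzyme of cholesterol synthesis, fell by 0.71, INSIG1, which holds back SREBP, by 0.70, HMGCS1 by 0.68 and FASN, fatty acid synthase, by 0.63. TM7SF2, another sterol enzyme, had a called rise of 0.38 that the 6-array fit did not call (limma adjusted p = 0.139), and SREBF1, which encodes the SREBP1 factor, had a change of -0.22 that was not called. The 6-array fit called 11 of the list lower.

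Among ribosome biogenesis genes 15 of 28 fell and none rose (median -0.25), led by NOP10 (-0.78) and NOLC1 (-0.63). Nicotine replicate 3 left out gave 9 falls, and the 6-array fit 3. Among heat shock proteins and co-chaperones 11 of 21 fell and 2 rose (median -0.25). FKBP4 fell by 0.60, while CRYAB, a small heat shock protein, had a called rise of 0.72. That call was lost in 2 of 13 alternative fits, among them the fit without irradiated replicate 2. The falls numbered 7 without nicotine replicate 1, 6 without irradiated replicate 2 and 1 in the 6-array fit. Of 192 small nucleolar and Cajal body RNAs 51 fell and none rose (median -0.24), but 17 without nicotine replicate 1, 28 without irradiated replicate 2 and 29 in the 6-array fit. These RNAs lie in introns of host genes, whose transcripts the same probes could detect.

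Of 15 measured nicotinic acetylcholine receptor subunits 1 was called, CHRNA5, which was lower. That share is near the 6.66% called lower over all genes. CHRNA5 levels were 10.19, 10.12 and 10.24 without and 9.75, 9.56 and 9.48 with radiation. The change was -0.59 ± 0.08 (limma adjusted p = 8.7e-08), with no overlap. CHRNA7, the subunit of homomeric receptors, had a change of -0.02 ± 0.15 (6.86, 6.79 and 6.39 against 6.82, 6.66 and 6.50), with interleaved arrays. The fall in CHRNA5 was also present without pretreatment (-0.41) and with smoke extract (-0.72). In the remaining lists calls were scattered or mixed in direction, beside 15.3% called over all genes: oxidative phosphorylation 2 lower of 31 (median -0.15), lysosome 4 higher and 1 lower of 25 (0.11), interferon response 2 and 2 of 24 (0.00), immediate early genes 2 higher of 25 (0.09), BCL2 family 3 higher and 1 lower of 18 (0.07), and NRF2 and AHR targets 2 higher and 5 lower of 25 (0.00). In each of these lists leaving out at least 1 array moved a count by over 1.5 times. Of the oxidative phosphorylation genes 26 of 31 stood below 0. Without pretreatment 16 of them were called lower and 1 higher (median -0.31), and none was called for the difference.

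**Figure D3:**
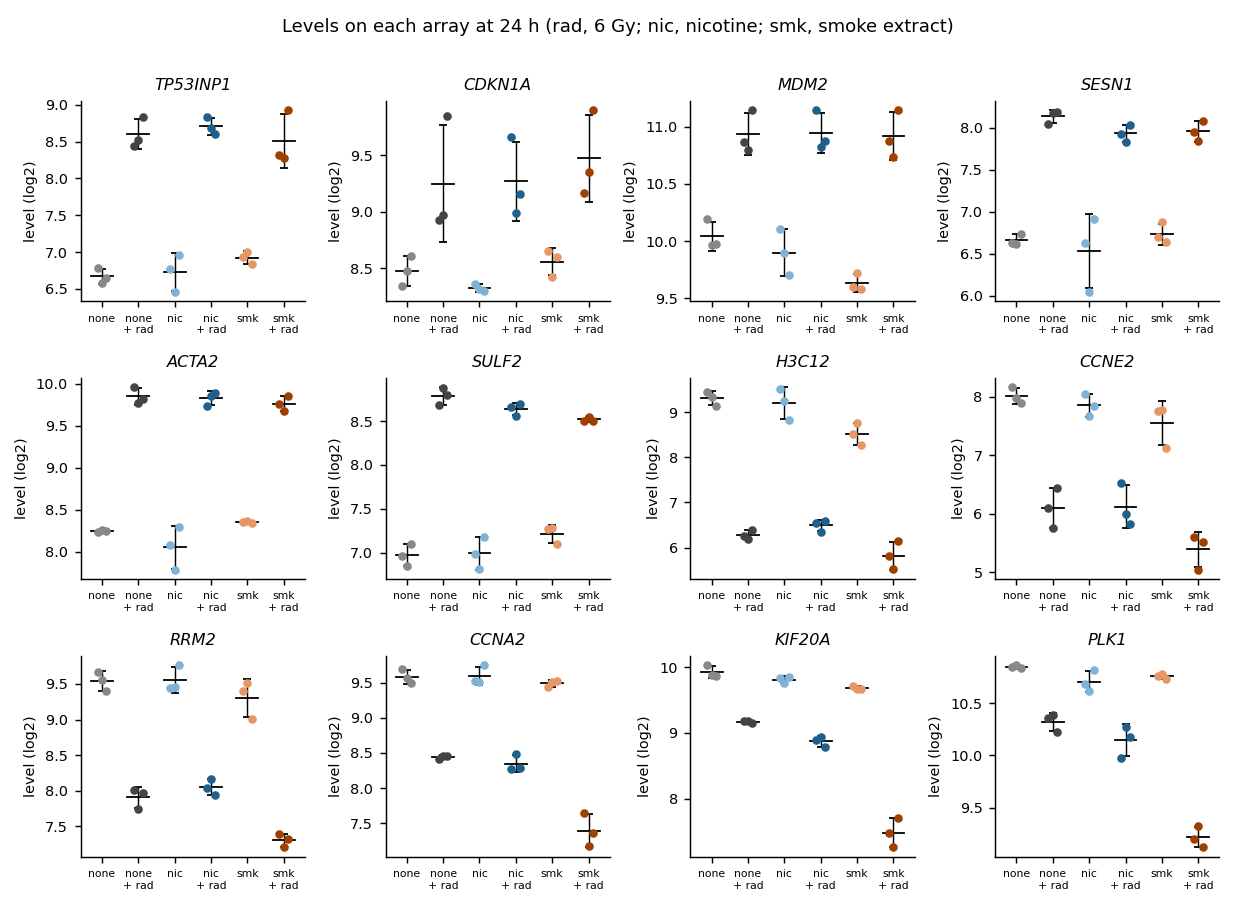
Levels (log2) of 12 genes on each array at 24 h, in cells without pretreatment (none), with nicotine (nic) or with smoke extract (smk), each without and with 6 Gy (+ rad); points are arrays, the long bar the mean and the error bar the SD (n = 3). TP53INP1 is higher after radiation in all 3 contexts (changes of 1.93, 1.97 and 1.58 in the order none, nicotine, smoke extract), while KIF20A drops to 8.89, 8.94 and 8.79 with nicotine and to 7.48, 7.26 and 7.71 with smoke extract.

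Whether nicotine changed the response was tested gene by gene, as the radiation effect with nicotine minus the effect without pretreatment. No gene was called (limma, 0 of 18417, smallest adjusted p 0.998), and 798 had an unadjusted p under 0.05. Without pretreatment 3875 genes were called (21%), 1850 higher (10%) and 2025 lower (11%). Of the genes called higher with nicotine 1122 were also called higher without it (70.9% of the first and 60.6% of the second), of those called lower 996 (81.2% and 49.2%), and none was called in opposite directions. Across 18417 genes, which are not independent, the changes correlated at r = 0.806 (Spearman 0.686). These 2 comparisons use separate arrays.

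The test bounds the difference for most genes but not for all. Its 95% interval lay within 1.5-fold either way for 15503 genes, including 2460 of the 2810 called with nicotine, 43 of 51 p53 targets, 61 of 74 division genes and 58 of 71 replication and G1/S genes, but 19 of 52 histones. For TP53INP1 the difference was 0.05 (95% interval -0.35 to 0.45), for CDKN1A 0.17 (-0.27 to 0.62), for MDM2 0.15 (-0.15 to 0.46), for SULF2 -0.17 (-0.38 to 0.04) and for RRM2 0.13 (-0.17 to 0.43). H2BC14 had a difference of 0.30 (0.02 to 0.57), an interval not adjusted for the number of genes. The genes with the smallest p were NDUFA3, a complex I subunit (-0.10 with nicotine, -0.69 without), the noncoding RNA LINC01521 (0.41 and -0.23), the small nucleolar RNA SNORA3A (-0.81 and -2.02), S100P, a calcium-binding protein (-0.09 and -0.63), and the microRNA gene MIR10A (1.09 and 0.05, from a level of 2.61 with nicotine alone, in a table that runs from 0.89 to 13.81). None of these differences passed adjustment.

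**Figure D4:**
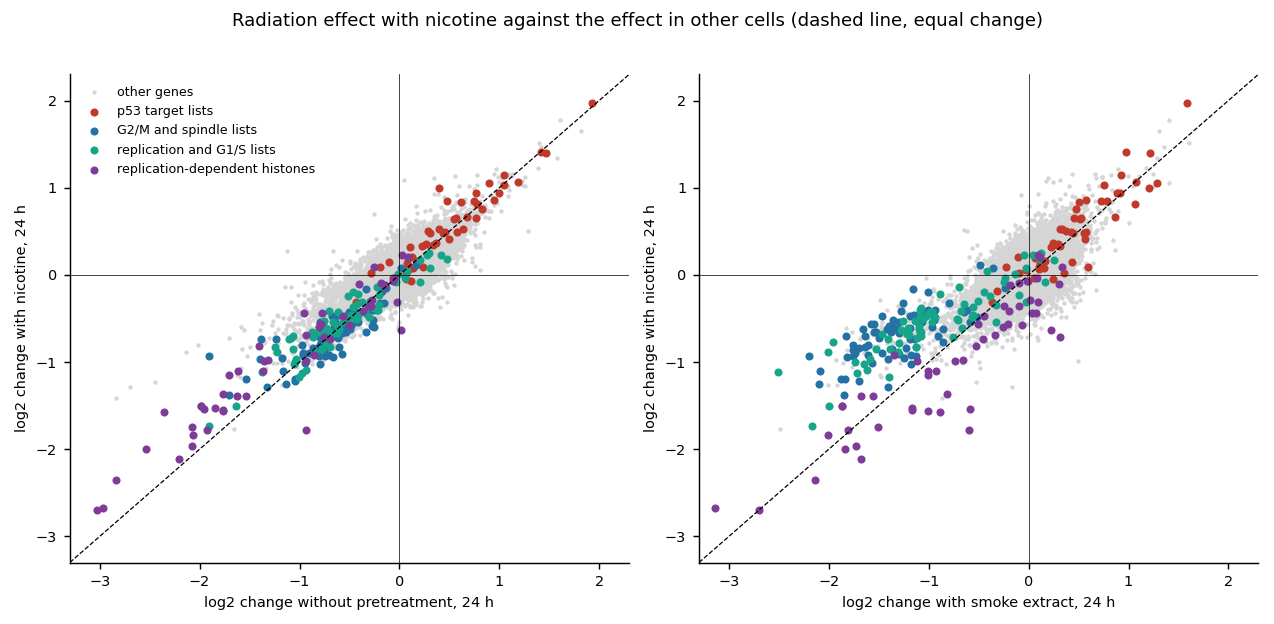
Each point is a gene, with its log2 radiation effect with nicotine on the y axis and its effect without pretreatment (left) or with smoke extract (right) on the x axis, all at 24 h; the dashed line marks equal change and colours mark the lists. On the left the p53, division and replication genes lie along the line, and on the right the division and replication genes lie above it, having fallen less with nicotine.

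Smoke extract, given at the same nicotine content, was the other pretreatment. The radiation effect with nicotine minus that with smoke extract was called for 199 genes (1.08%), 188 higher (1.02%) and 11 lower (0.0597%). With smoke extract itself radiation gave 2611 called genes (14.2%), 777 higher (4.22%) and 1834 lower (9.96%). Of the 188, 146 had a change below 0 in both with the lower value after smoke extract, 129 were called lower with nicotine and 163 called lower with smoke extract, and the medians were -0.49 and -1.19. The division lists gave 41 of 74 measured genes (median difference 0.66) and the replication and G1/S lists 25 of 71 (0.43), while the p53 lists gave none of 51 (0.06) and the histones 1 lower and none higher. The count was sensitive to single arrays: 97 without nicotine replicate 2, 1335 without nicotine replicate 3, 358 without irradiated nicotine replicate 1, 122 without irradiated smoke extract replicate 2, and 18 in a fit of the 12 arrays alone.

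KIF20A, a kinesin of cytokinesis, went from 9.83, 9.75 and 9.85 to 8.89, 8.94 and 8.79 with nicotine, and from 9.72, 9.66 and 9.67 to 7.48, 7.26 and 7.71 with smoke extract. The levels without radiation were close, the irradiated arrays were over 1 log2 unit apart, and the difference was 1.26 ± 0.12 (limma adjusted p = 1.6e-09). PLK1 went from 10.68, 10.62 and 10.82 to 9.98, 10.28 and 10.18 with nicotine and from 10.76, 10.78 and 10.73 to 9.20, 9.32 and 9.12 with smoke extract. That difference was 0.98 ± 0.10 (limma adjusted p = 5.5e-09). CDC6, which loads the replicative helicase, differed by 1.18, BLM by 1.21, TROAP, a spindle protein, by 1.20 and CLSPN by 1.39 ± 0.27, which the 12-array fit did not call. In the other direction H2AC25 went from 7.35, 7.08 and 6.07 to 6.07, 5.82 and 5.62 with nicotine and from 5.76, 5.93 and 6.01 to 6.26, 6.50 and 6.43 with smoke extract, a difference of -1.49 ± 0.27. Its nicotine controls were scattered. H2BC21 (-0.86), MT1HL1 (-0.68), GSTA1 (-0.65) and PTTG1IP (-0.62) lost their calls when any of several single arrays was left out, and the 12-array fit called none of these 5 genes (limma adjusted p 0.0954 for H2AC25).

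**Figure D5:**
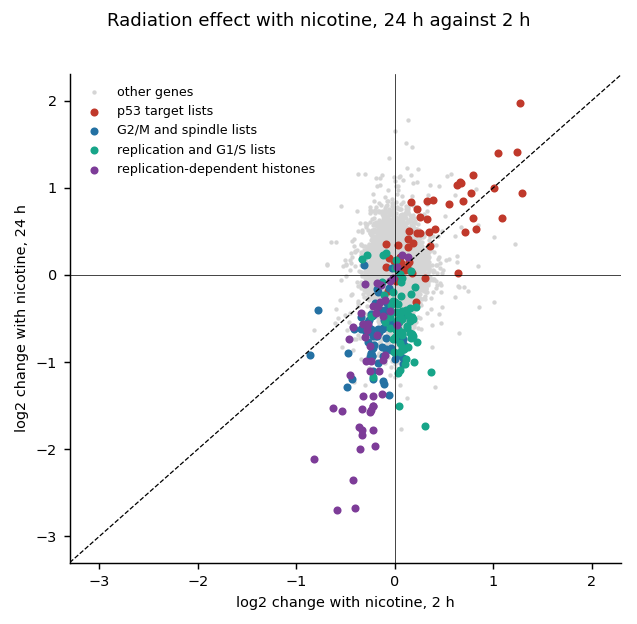
Each point is a gene, with its log2 radiation effect in nicotine-pretreated cells at 2 h on the x axis and at 24 h on the y axis; the dashed line marks equal change and colours mark the lists. Most p53 targets lie to the right and above, with 14 of 51 called higher at 2 h and 33 at 24 h. At 2 h genes of the DNA replication list spread from -0.24 to 0.37 (median 0.06) and histones from -0.82 to 0.13 (median -0.24). The G1/S list, drawn in the same colour as DNA replication, spread from -0.33 to 0.31 (median 0.05). At 24 h the medians of the DNA replication and histone lists are -0.61 and -0.95, and that of the G1/S list is -0.40.

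At 2 h after radiation, nicotine-pretreated cells had 42 called genes (0.228%), 24 higher (0.13%) and 18 lower (0.0977%). Of the 24, 14 were among the 51 measured p53 targets, and 21 were called higher at 24 h too; of the 18, 12 were also lower at 24 h. CDKN1A was at 8.41, 8.36 and 8.36 without and 9.57, 9.76 and 9.70 with radiation at 2 h, a change of 1.30 ± 0.16, against 0.94 at 24 h, and the difference between times was not called (-0.36 ± 0.22, limma adjusted p = 0.456). TP53INP1 changed by 1.27 at 2 h and 1.97 at 24 h (difference 0.70 ± 0.20, limma adjusted p = 0.0200). Of the p53 targets 5 had a called larger effect at 24 h, TP53INP1, TP53I3, DDB2, XPC and CCNG1, and for 2 the change at 24 h was called lower than at 2 h: PLK3 went from 1.09 to 0.65, and SFN from 0.21 (not called) to -0.31.

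Called falls of division and replication genes came mostly at 24 h. Most division genes stood below 0 earlier, though few were called. At 2 h this held for 25 of 33 on the G2/M list (median -0.18) and 38 of 41 on the spindle list (median -0.17). The median change over all genes at 2 h was 0.01. CCNF changed by -0.86 at 2 h and -0.92 at 24 h. Of 74 division genes 5 were called lower at 2 h and 68 at 24 h, with 39 called for the difference, and of 71 replication and G1/S genes none at 2 h and 56 at 24 h, with 47 called for the difference. CCNE2 was at 8.36, 8.95 and 8.81 without and 8.94, 9.18 and 8.91 with radiation at 2 h (change 0.31 ± 0.19, not called), and its effect was 2.05 lower at 24 h (difference -2.05 ± 0.26). RRM2 had a change of 0.04 at 2 h. SULF2 (7.01, 7.09 and 7.08 against 7.03, 7.07 and 7.07) and ACTA2 (7.94, 8.03 and 8.10 against 8.14, 8.18 and 8.15) had no called change at 2 h, and their effects were 1.65 ± 0.10 and 1.64 ± 0.13 higher at 24 h. H3C12 was already lower at 2 h (-0.59 ± 0.13, limma adjusted p = 0.0253), as was WEE1 (-0.78 ± 0.16, limma adjusted p = 0.0144). KLF11, a transcriptional repressor, was called higher at 2 h (0.61) and lower at 24 h (-0.26). ATF2 (-0.29 and 0.22), FLRT2 (-0.38 and 0.51) and ZSCAN31 (-0.41 and 0.41) were called lower at 2 h and higher at 24 h. TNFSF9, the ligand of 4-1BB, rose at 2 h (0.64) and stood at 0.03 at 24 h. In all, the effect differed between the times for 1256 genes (6.82%), 692 higher (3.76%) and 564 lower (3.06%) at 24 h, and without nicotine 24 h replicate 3 for 1888.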

How the data were processed

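RNA from 54 wells of NCI-H460 cells was hybridised to 1-colour whole-transcript arrays. The deposited values are log2 levels, 1 per transcript cluster (33297 rows), made with Affymetrix Power Tools 1.15.0 per the submitters' processing notes. The normalization and build are not given in the sources used here, and the log base was read from the values (0.89 to 13.81, array medians 6.43 to 6.63). Precision is limited by 3 arrays per group (median SE of a change 0.111), and there are no detection calls.

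Rows with 1 gene symbol were kept (19460; 1754 had several symbols and 12083 none; 19429 matched by Entrez ID), and the row of highest mean level was taken per symbol, giving 18417 genes. Among other rows of called genes 152 moved the same way and 11 the opposite way. One limma model (3.58.1, R 4.3.3) of 18 group means with intensity trend gave every comparison and difference (36 residual df). Simulated data had 18417 genes, 100 changed genes per size and noise drawn independently for each gene and array. There the test recovered 99 genes with a log2 change of 1 and 66 with 0.5, with 1 false call. Deviations shared by many genes of an array were not simulated, so this false-call count does not cover them. Samples of the 2 main groups with the same replicate number deviated together (r = 0.465, 0.251 and 0.103). The labels state no shared plate or day, and the reported tests did not pair them. Most other pairs of groups did not show it (for example, smoke extract at 24 h with and without radiation: -0.0775, -0.400 and -0.437). With the number as a block, run only as an alternative, 2862 genes were called.

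The members, the 24 lists and the rules were chosen with earlier results of these data known. Named genes were the 10 largest called rises and falls with non-overlapping arrays, from each list up to 5 called members and up to 3 uncalled ones, a fixed set of p53, cell cycle and nicotinic receptor genes, and 5 genes each way per difference test; other list members and the 2 h genes were named after their values were seen. Alternatives were quantile normalization, a covariate for background level, no intensity trend, brighter genes alone, all rows, the compared groups alone, a replicate block, and leaving out each array. Promoters came from RefSeq (GRCh38.p14).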

Additional observations from a re-analysis of the deposited data

Results flagged for a closer look

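The radiation effect differed between nicotine and smoke extract for 199 genes, by the test of the difference itself. Among the genes named there, the effect with nicotine was higher for CLSPN (1.39), KIF20A (1.26), BLM (1.21), TROAP (1.20) and CDC6 (1.18), and lower for H2AC25 (-1.49), H2BC21 (-0.86), MT1HL1 (-0.68), GSTA1 (-0.65) and PTTG1IP (-0.62). A fit of the 12 compared arrays alone called 18 genes higher and none lower, so the 5 lower differences were not called there.

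The effect in nicotine-pretreated cells differed between 24 h and 2 h for 1256 genes by the same kind of test. It was higher at 24 h for SULF2 (1.65), ACTA2 (1.64), PLAC4 (1.53), AADAC (1.46) and DNAI3 (1.40), and lower for H2BC14 (-2.26), H3C12 (-2.11), CCNE2 (-2.05), H1-5 (-1.93) and FAM111B (-1.83).

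Among rows of the value table that name no gene or several, which the comparisons leave out, 769 were called in a fit over all rows: 211 of 1754 with several symbols (12%) and 558 of 12083 with none (4.62%).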

How the results depend on the processing

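The count of genes called at 24 h kept within 1.5 times of 2810 except in the fit of the 6 arrays alone (738), or with that fit and a replicate block (1705, an alternative chosen after seeing the data). Leaving out 1 array gave 1959 to 3578. Quantile normalization split the calls into 1814 higher and 1447 lower, and the background covariate into 2503 and 1544. The nicotine against smoke extract count was 410 with the covariate, 18 in the compared groups alone and 97 to 1335 with 1 array left out. The 24 h against 2 h count was 2020, 444 and 843 to 1888 under the same settings, and the 2 h count 74, 68 and 26 to 33. The count without pretreatment stayed within 1.5 times under every alternative run. The count against no pretreatment was 0 under every alternative run. With the replicate block in the full fit the only named genes to change call were H2AC17 (limma adjusted p = 0.0448) and SNORD15B (0.0395), both gained. Signs turned only in genes that were not called: CHRNA7 was 0.0419 with the covariate and -0.166 to 0.0700 with 1 array left out, and over the same omissions BBC3 was -0.0784 to 0.183, E2F7 -0.157 to 0.0793, KIF18A -0.0225 to 0.259 and HMMR -0.419 to 0.00243. The cause of these changes was not tested. Over the named genes and alternatives 2905 values kept their call, 216 lost it and 115 gained one.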

Other observations

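Chosen after their values were seen, 4 further genes moved at 24 h in nicotine-pretreated cells. EDA2R, a receptor of the TNF receptor family, had a change of 1.13 ± 0.19 (limma adjusted p = 1.7e-05), against 0.56 without pretreatment and 1.11 with smoke extract. TRIM22, an antiviral RING-finger protein, had a change of 1.02 (1.25 without pretreatment and 1.25 with smoke extract) and 0.02 at 2 h. The microRNA gene MIR95 had a change of 1.11 (0.35 without pretreatment) at a mean level of 2.67. No gene, EDA2R and MIR95 included, was called for the difference between nicotine and no pretreatment. MYC, a driver of growth, had a change of -0.23 (limma adjusted p = 0.0374).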
